A study of Mus musculus with 31 samples.

Results

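The brain arrays of 8 recombinant inbred mouse strains were compared with those of 16 core strains. The 8 are BXD42, BXD40, BXD39, BXD34, BXD33, BXD27, BXD22 and BXD15, and the core strains are BXD1, BXD2, BXD5, BXD9, BXD11, BXD12, BXD13, BXD14, BXD16, BXD18, BXD19, BXD21, BXD24, BXD29, BXD31 and BXD32. The series holds 31 strains, each measured on 1 array, so the group of 8 and the core together make 24 of 31 arrays. Both sets were chosen by the resemblance of their deposited log ratios, and no label of treatment or batch separates them. Every difference between them below is therefore a description and carries no test. The sources used here name no print run, slide or hybridisation batch, so an array batch and the strains cannot be told apart.

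Every animal behind these arrays was a male of 8 weeks, and the tissue was whole brain. RNA of 3 animals of a strain was pooled, 20 ug of the pool was labelled with Alexa Fluor 647, and the reference on the same array was RNA from C57BL/6J brain, labelled with Alexa Fluor 555 and carrying 2 ug of a spike-in mix. No dyes were swapped, and no strain has a second array. The 16 core strains differ from the group of 8 in strain alone by their labels: age, sex, tissue, pooling and reference are shared. The other 7 strains of the series, which resembled neither set, are given only where they help to place a value.

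BXD strains were bred to inbreeding from mice with C57BL/6J and DBA/2J ancestors, and each carries its own fixed mosaic of the 2 parental genomes. A gene near a variant that differs between the parents can take the level of either parent, and strains that share an allele share that level. The gene group that differed most here, the proteins of the cytosolic ribosome, forms the large and small subunits that translate every messenger RNA of the cell. Their messenger RNAs are short, abundant and tend to vary together.

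Values are log ratios of strain over C57BL/6J, read as log2. Neither the log base nor the direction is stated by the submitters, and every sign below would turn if the ratio ran the other way. A difference is the mean log ratio of the 8 arrays minus the mean of the 16 core arrays. The groups are said not to overlap when every one of the 8 values lies beyond every one of the 16. Levels are ratios to another strain and not amounts of RNA, so they cannot show whether brain markers were present, and fewer cells of a type cannot be told apart from less RNA per cell.

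The promoters of 4 ribosomal protein genes are shown because this gene group carried the broadest difference and its members lay low together. Each stretch runs from 100 bases before to 20 bases after the RefSeq start of the gene (GRCm38.p6), 5′ to 3′ on the strand of the gene. The stretches are chr11:114668480-114668599 on the plus strand for Rpl38, chr4:86857348-86857467 on the minus strand for Rps6, chr10:128549149-128549268 on the minus strand for Rpl41 and chr5:65391412-65391531 on the minus strand for Rpl9. Capitals mark the letters CCGGAAG, the core recognised by GABP and other ETS factors, searched on both strands.
Rpl38: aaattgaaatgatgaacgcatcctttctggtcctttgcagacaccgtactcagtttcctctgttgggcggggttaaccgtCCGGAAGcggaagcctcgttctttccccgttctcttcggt
Rps6: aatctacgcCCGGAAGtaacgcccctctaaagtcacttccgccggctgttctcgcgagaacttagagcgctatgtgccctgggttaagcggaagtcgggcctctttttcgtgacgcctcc
Rpl41: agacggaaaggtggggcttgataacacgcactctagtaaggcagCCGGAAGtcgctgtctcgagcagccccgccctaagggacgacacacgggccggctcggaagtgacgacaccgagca
Rpl9: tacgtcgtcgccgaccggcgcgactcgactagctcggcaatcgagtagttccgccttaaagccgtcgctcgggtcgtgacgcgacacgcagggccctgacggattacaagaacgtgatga
In the fuller RefSeq window, from 250 bases before to 50 after the start, these letters were found for 24 of 55 ribosomal protein genes (43.6%). The same window held them for 1753 of 11755 measured genes (14.9%). A match is a run of letters and not a binding site. Rpl9, which had the lowest difference among the ribosomal genes without overlap, has none in the stretch shown, whereas Rpl38, also without overlap, has one close to its start. Rpl10a, Rpl13, Rpl13a, Rpl28 and Rps23, also without overlap, have none in the same stretch of their promoters. Rps6 and Rpl41, which have the letters, overlapped the core. Whether the letters go with the size of a difference was not tested. The letters AAGATGGC, listed for YY1, were also searched. They were found for 4 of 55 ribosomal protein genes (7.27%) and for 493 of 11755 measured genes (4.19%).

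The 8 arrays resembled each other more than the core arrays did. The correlation of log ratios over all spots averaged 0.826 within the group (range 0.749 to 0.906 over 28 pairs), 0.752 within the core (0.555 to 0.868 over 120 pairs) and 0.663 between them (0.499 to 0.799 over 128 pairs). The pairs share arrays and the same reference, and these correlations are also what defined the groups. BXD34 and BXD42 were the closest pair, at 0.906, and BXD27 was the least like the others, with a mean correlation of 0.782. On the second principal component the 8 arrays scored 0.253 to 0.317. The highest score of any other array was 0.0792, in BXD5.

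**Figure D1:**
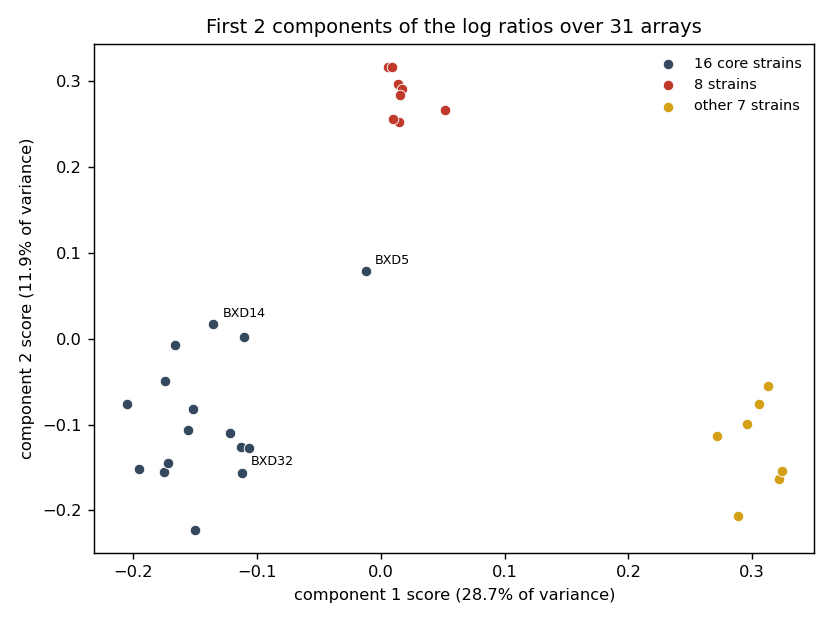
Scores of the 31 arrays on the first 2 principal components of the log ratios, with the share of variance on each axis; each point is 1 array and colours give the 3 sets. The 8 arrays score 0.253 to 0.317 on component 2, and the nearest other array is BXD5 at 0.0792.

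BXD5 lay at the edge of the core. Its mean correlation was 0.673 with the group of 8 and 0.634 with the other core arrays, and its nearest single array was BXD15, at 0.727. BXD32 lay apart on the other side, at 0.638 with the core and 0.531 with the group of 8. Both are core members by the rule and were kept, and the counts without each of them are given below. Strains numbered from 33, a later set of BXD strains, make up 5 of the 8 and 0 of the 16, so strain set and array group move together as well.

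Spread within the group was small. Over the 13187 named genes with no probe at the last place of a run of 8 spots, the median SD of a gene was 0.139 among the 8 arrays, 0.194 among the core and 0.224 among the other 7. At 1689 genes measured only at that last place, called place 8 below, the median SD was 0.138 among the 8 and 0.277 among the core. A narrow group clears a wide one more easily, so counts without overlap also reflect this spread.

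Of 15096 named genes, 628 (4.16%) did not overlap: 260 (1.72%) lay higher in the 8 strains and 368 (2.44%) lower. Over all 21262 features, spots without a gene symbol included, 858 (4.04%) did not overlap and 240 (1.13%) differed by at least 1. Differences over all named genes had a median of 0.02 and an SD of 0.31, and ran from −1.79 to 1.45. A difference of at least 1, which is 2-fold on the log2 scale, was found for 154 genes (1.02%), with 21 (0.139%) higher and 133 (0.881%) lower. Differences past this size thus lay mostly on the low side, while 52.8% of all named genes had a difference above 0.

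Place 8 held a disproportionate share of these genes. Of the genes measured only there, 151 (8.94%) did not overlap, 38 (2.25%) higher and 113 (6.69%) lower. Of those with no probe there, 462 (3.50%) did not overlap, 219 (1.66%) higher and 243 (1.84%) lower. The counts on the low and high side were thus near each other away from place 8 and unequal there. Differences of at least 1 were found for 97 genes (5.74%) at place 8 against 57 (0.432%) elsewhere. Spots at place 8 also had low log ratios in every set, with array means of −0.54 to −0.46 in the 8 strains and −0.60 to −0.30 in the core. At places 1 to 7 the mean difference ran from −0.03 to 0.02, and the SD of differences from 0.285 to 0.304. At place 8 the mean difference was 0.02 and the SD was 0.475. The part of spot place in any single difference was not tested.

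The gene for glyceraldehyde-3-phosphate dehydrogenase, Gapdh, an enzyme of glycolysis, was spotted 231 times at place 8 and showed how much 1 gene varied there. Its spots had a mean difference of −0.18 ± 0.40 (SD over spots), from −1.58 to 0.56. For 10 spots (4.33%) the 8 arrays lay below all core arrays, and for 0 above. Without overlap in either direction were 9.02% of the other named spots at place 8 and 4.04% of all features. These spots are not replicates of a strain. If their annotation holds, the same transcript thus gave differences spanning more than 2 log2 units at place 8. For this reason genes at place 8 are described apart from the others.

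Among genes without overlap and away from place 8, the largest differences were found for genes of many functions. Specc1l and Gjc1 had larger means, 1.45 and 1.38, but overlapped the core. Highest without overlap was Elf1, an ETS family transcription factor, whose log ratios had a lowest, median and highest value of 0.53, 0.88 and 1.64 in the 8 strains and of −0.83, −0.02 and 0.47 in the core. Every one of the 8 lay above the core, with a difference of 1.04 ± 0.15 (SE), the nearest arrays being BXD22 and BXD5. Kif27, a kinesin-related protein of motile cilia, had a median of 0.69 (0.02 to 0.99) in the 8 and −0.41 (−1.16 to −0.03) in the core. BXD15 and BXD22 stood close to the top of the core for this gene, and the other 6 lay clear of it.

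Leprotl1, a membrane protein related to the leptin receptor overlapping transcript, was at 1.34 (1.06 to 1.58) in the 8 and 0.24 (−0.01 to 0.89) in the core. Ptpn14, a protein tyrosine phosphatase, was at 1.34 (1.05 to 1.76) against 0.37 (−0.01 to 0.92). Neither pair of groups overlapped, and the differences were 1.03 ± 0.09 and 0.99 ± 0.10 (SE). Ptpn14 was the only one of the 12 highest genes that also lay above all of the other 7 strains, whose median was −0.08. For Elf1 and Kif27 the other 7 strains had medians of 0.81 and 1.12, on the side of the group of 8.

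Ap3m1, the medium subunit of the AP-3 adaptor that sorts cargo to lysosomes, had a difference of 0.87 ± 0.10 (SE). Its log ratios were 0.95 (0.67 to 1.48) in the 8 and 0.04 (−0.09 to 0.58) in the core. Hhat, the acyltransferase that attaches palmitate to hedgehog proteins, was at 1.04 (0.82 to 1.23) against 0.12 (−0.10 to 0.70). Washc3, a subunit of the WASH complex that nucleates actin on endosomes, was at 0.48 (0.14 to 0.76) against −0.27 (−0.56 to 0.07). The remaining 5 of the 12 highest genes, Zfp930, Tmem123, 4930428D20Rik, 5530601H04Rik and 1700013G23Rik, had differences of 0.74 to 0.94, and none overlapped.

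On the low side the differences were larger and the core was the wider group. Potegl, a member of the POTE ankyrin family, was at −0.59 (−0.88 to −0.00022) in the 8 and at 1.07 (0.02 to 2.64) in the core, a difference of −1.72 ± 0.21 (SE). Its highest array of the 8, BXD15, almost touched the lowest of the core. Vav2 was at −0.28 (−0.57 to 0.07) against 1.17 (0.44 to 1.95). Aff1, a scaffold of the super elongation complex, was at −0.46 (−0.64 to −0.29) against 0.87 (0.25 to 1.67). For both genes the 8 strains lay near the other 7, whose medians were −0.29 and −0.35, and it was the core that stood apart.

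Apobec4, a member of the APOBEC family of cytidine deaminases, was at −0.95 (−1.58 to −0.74) in the 8 and 0.31 (−0.71 to 1.28) in the core. Ext2, a glycosyltransferase of heparan sulphate synthesis, was at −0.01 (−0.23 to 0.59) against 1.22 (0.65 to 2.25), a difference of −1.24 ± 0.15 (SE). Llgl2, a cell polarity protein, was at −0.94 (−1.18 to −0.78) against 0.24 (−0.49 to 1.21). None of these overlapped, and Apobec4 and 4930402F06Rik, whose difference was −1.67, were the 2 of the 12 lowest genes that also lay below all of the other 7 strains. The others were Rpl9, Trim15, Cox6a1, Psrc1 and Tcl1b3, at −1.17 to −1.09.

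**Figure D2:**
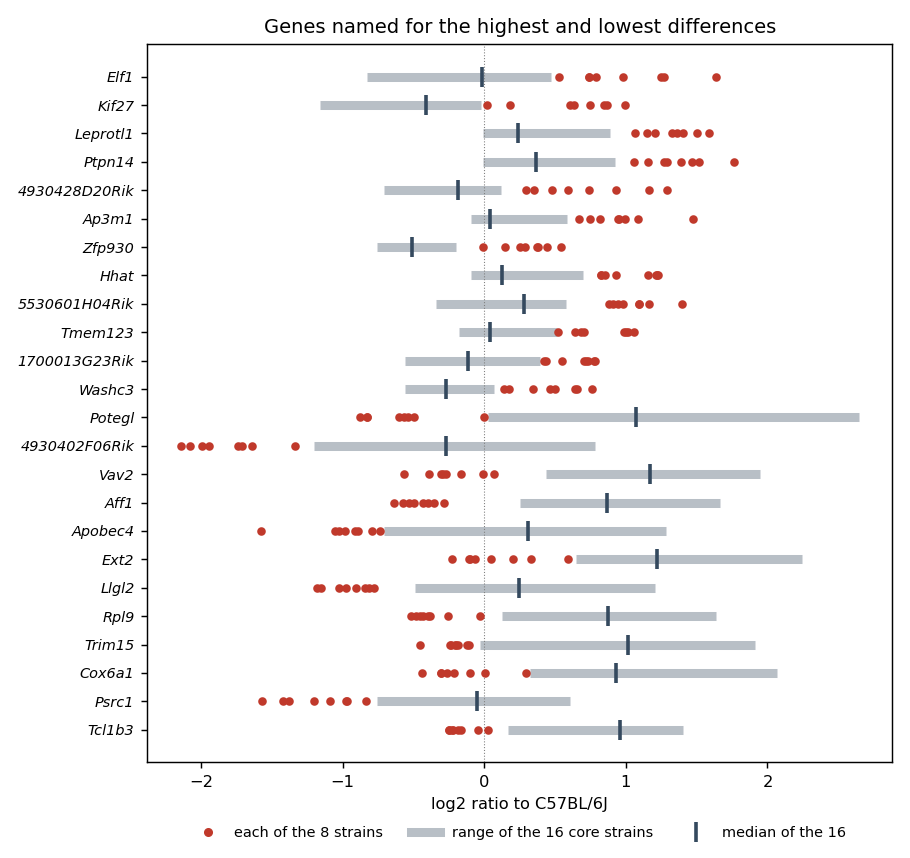
Log2 ratios to C57BL/6J of the 12 highest and 12 lowest named genes without overlap and with no probe at place 8; points are the 8 arrays, bars the range of the 16 core arrays and ticks their median. No point falls within its bar, although some come close, as BXD15 does for Potegl at −0.00022 against a core minimum of 0.02.

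Genes at place 8 reached further on the low side. Cox7a2, a subunit of cytochrome c oxidase, was at −0.70 (−1.26 to −0.37) in the 8 and 1.06 (0.31 to 1.97) in the core, a difference of −1.79 ± 0.15 (SE). F3, tissue factor, which starts blood coagulation, was at −2.41 (−2.56 to −1.88) against −0.49 (−1.53 to 0.07). Adipoq, the fat-cell hormone adiponectin, and Ccr9, a chemokine receptor of gut-homing T cells, had differences of −1.71 ± 0.15 and −1.63 ± 0.18 (SE), and Fam174c one of −1.62 ± 0.11 (SE). The other 7 strains had medians of −1.23 for Cox7a2, −2.58 for F3, −2.16 for Adipoq and −1.61 for Ccr9, again on the side of the 8.

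The high genes at place 8 were Megf6, Tie1, Magt1, Mis12 and Abcc9. Megf6, a secreted protein with EGF-like repeats, had the largest value, 1.36 ± 0.41 (SE), but rested partly on BXD27 at 2.11, while the other 7 arrays of the group lay between −1.24 and −1.01. Without BXD27 its difference was 0.96. Tie1, a receptor tyrosine kinase of endothelium, was at −0.68 (−0.80 to −0.52) against −1.67 (−1.97 to −0.87) in the core.

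The cytosolic ribosomal proteins were the gene group with the broadest difference. Of 67 measured, 63 had a difference below 0, against 47.2% of all named genes, and the median was −0.47, against 0.02 over all named genes. For 9 of the 67 the 8 arrays lay below all core arrays, against 2.44% of named genes: Rpl9, Rpl10a, Rpl13, Rpl13a, Rpl28, Rpl29, Rpl38, Rps14 and Rps23. For 0 they lay above. All 8 arrays lay below the core median for 38 of the 67 genes, against 20.2% of named genes.

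Within the large subunit, Rpl28 gave a clear separation. Its log ratios were 0.28 in BXD15, 0.0029 in BXD22, −0.02 in BXD27, 0.18 in BXD33, 0.16 in BXD34, 0.21 in BXD39, 0.01 in BXD40 and 0.01 in BXD42, while the core ran from 0.53 through a median of 0.97 to 1.35. The highest of the 8 thus lay well under the lowest core array, with a difference of −0.83 ± 0.08 (SE). Rpl10a was at −0.18 (−0.32 to −0.03) against 0.73 (0.18 to 1.10), and Rpl13 at −0.15 (−0.21 to −0.05) against 0.35 (0.17 to 0.54). In both, the 8 values were close together and the core was spread.

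Rpl9, whose protein sits in the large subunit beside the stalk, was at −0.42 (−0.52 to −0.03) in the 8 and 0.87 (0.12 to 1.64) in the core, a difference of −1.17 ± 0.11 (SE). Rpl38, whose promoter is shown above, was read by a probe at place 8. It was at −0.43 (−0.59 to −0.17) against 0.47 (0.12 to 1.78), a difference of −0.96 ± 0.12 (SE). Rplp1, an acidic protein of the stalk that recruits elongation factors, had the lowest difference of the whole group, −1.25 ± 0.15 (SE), but overlapped, because BXD15 stood at 0.48 while the other 7 arrays lay between −0.51 and −0.18. Rpl27, Rpl10 and Rpl37a, with differences of −1.05, −1.02 and −0.94, also overlapped, and BXD15 was the highest of the 8 in each.

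Over the large subunit 38 of 42 genes had a difference below 0, with a median of −0.50. The 4 above 0 were Rpl24 at 0.13, Rpl3l at 0.18, Rpl22 at 0.26 and Rpl23 at 0.31. Rpl3l is a form of Rpl3 known from striated muscle. Rpl22, a protein of the large subunit that some cells can spare, was at 0.44 (0.35 to 0.65) in the 8 and 0.18 (0.04 to 0.46) in the core. All 4 overlapped the core, although 3 of the 8 arrays lay above its highest value for Rpl22, 2 for Rpl3l and 1 for Rpl24.

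In the small subunit all 25 genes measured had a difference below 0, with a median of −0.42. Rps14, part of the platform of the small subunit, was at 0.04 (−0.19 to 0.40) in the 8 and 0.85 (0.44 to 1.67) in the core, without overlap and read at place 8. Rps23, which lies at the decoding centre, was at −0.38 (−0.48 to −0.2864) against −0.08 (−0.2854 to 1.26), the lowest core array almost reaching the highest of the 8. Rps15 and Rps29 had differences of −1.02 ± 0.11 and −1.01 ± 0.15 (SE); the first overlapped through BXD15 alone and the second through BXD15 and BXD22. Rps6, the target of S6 kinases, was at −0.31 (−0.51 to 0.18) against 0.57 (0.10 to 0.98), with BXD15 alone inside the core. At the other end Rps2 and Rps16 differed by only −0.02 and −0.04.

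The mean over the 67 genes placed the arrays in an order. Among the 8 it was −0.26 in BXD39, −0.22 in BXD42, −0.20 in BXD27, −0.18 in BXD40, −0.16 in BXD34, −0.16 in BXD22, −0.07 in BXD33 and 0.07 in BXD15. The core ran from 0.06 in BXD16 through a median of 0.30 to 0.70 in BXD32. Of the 8, 7 thus lay below every core array, and BXD15 lay just above BXD16. BXD15 was the highest of the 8 for 40 of the 67 genes, and BXD39 the lowest for 27. In the core, BXD32 was the highest for 28 and BXD16 the lowest for 18. The other 7 strains had means of −0.376 to 0.0748, close to the −0.264 to 0.0731 of the 8, and the core was the set with high ribosomal log ratios.

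The group difference did not rest on place 8. With the 17 genes that have a probe there set aside, 47 of 50 lay below 0 and the median was −0.52. It was −0.45 without BXD32 in the core and −0.48 without BXD5. With all 23 other arrays in place of the core it was −0.34, and 58 of 67 lay below 0. The mean over all 13187 named genes away from place 8 was near 0 in every array, at 0.03 to 0.04 in the 8 and 0.02 to 0.06 in the core, as quantile normalisation of the deposited columns leads one to find.

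For 8 ribosomal protein genes a second probe was available. Rpl35a gave −0.71 and −0.73 with its probes, and Rpsa −0.35 and −0.37. Rps12 gave −0.80 with one probe and 0.25 with the other, and Rpl27a 0.32 and −0.57. Agreement was therefore uneven within this group, and many ribosomal protein genes have processed copies elsewhere in the genome that a spotted probe could also bind.

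**Figure D3:**
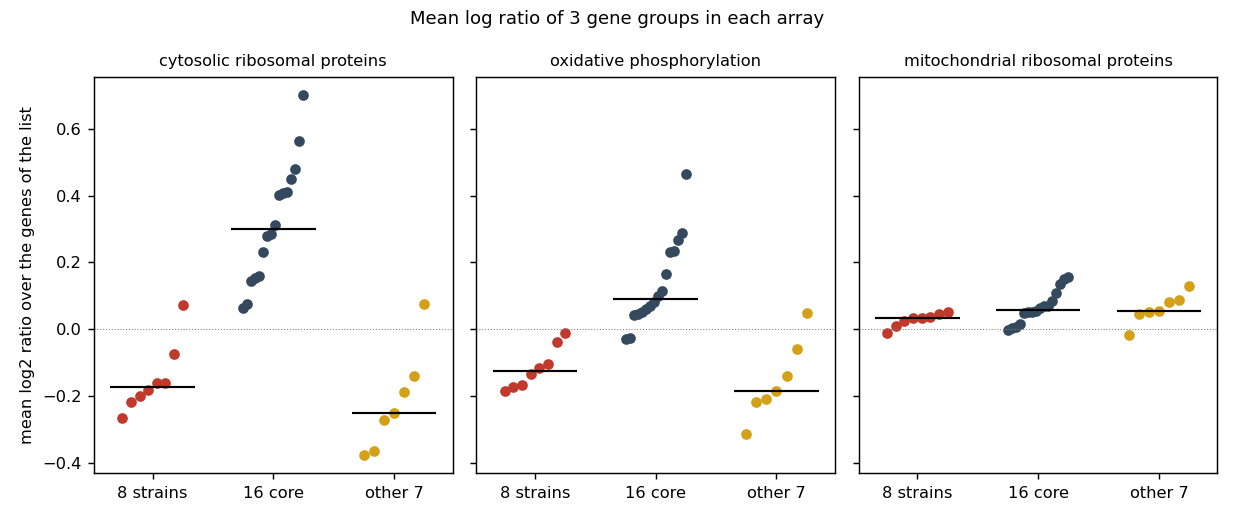
Mean log2 ratio over the genes of 3 groups in each array; each point is 1 array, placed from low to high within its set, and the line is the median of the set. For cytosolic ribosomal proteins the 8 strains run from −0.26 to 0.07 and the core from 0.06 to 0.70, while for mitochondrial ribosomal proteins the sets overlap.

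The subunits of oxidative phosphorylation, the chain of mitochondrial complexes that makes ATP, showed a smaller difference on the same side. Of 76 measured, 58 lay below 0, and the median was −0.20. The array mean over the 76 genes was −0.18 to −0.01 in the 8 and −0.03 to 0.46 in the core, so that 7 of the 8 lay below every core array. The other 7 strains were on the same side, with array means of −0.31 to 0.05 and a median difference from the core of −0.23. The low values were thus not particular to the 8. By complex, 23 of 31 genes of complex I, 3 of 4 of complex II, 8 of 8 of complex III, 11 of 16 of complex IV and 13 of 17 of complex V lay below 0. The genes of complex V include Atp5k-ps1, a pseudogene by its symbol, read at place 8 with a difference of −0.64. Atp5k itself was at 0.35. Medians ran from −0.18 in complex I to −0.26 in complex IV. The array mean lay below every core array in all 8 strains for complex IV, in 6 for complexes I and III, in 4 for complex V and in 3 for complex II.

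For 4 of the 76 the 8 arrays lay below the core, against 2.44% of named genes, and for 1 above, against 1.72%. Cox6a1, a regulatory subunit of complex IV, was at −0.24 (−0.44 to 0.29) in the 8 and 0.93 (0.32 to 2.06) in the core, a difference of −1.13 ± 0.13 (SE). Ndufb8, a complex I subunit, was at −0.28 (−0.45 to −0.20) against 0.09 (−0.18 to 1.49), so that the edges of both groups nearly met. Ndufa2, also of complex I, and Cox7a2 were both read at place 8, and Ndufa2 had a difference of −1.26 ± 0.10 (SE). The gene on the high side was Cox7a1, the form of that subunit known from heart and skeletal muscle, at 0.21 (0.11 to 0.51) against −0.13 (−0.31 to 0.05).

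Mitochondrial ribosomal proteins, which translate the proteins encoded by mitochondrial DNA, had a median close to that of all named genes. Of 72 measured, 42 lay below 0, with a median of −0.05, and the array means were −0.01 to 0.05 in the 8 and −0.0032 to 0.16 in the core. For 5 of the 72 the 8 arrays lay below the core, against 2.44% of named genes, and for 1 above, against 1.72%. Of these, Mrpl28 was at 0.22 (0.11 to 0.66) against 1.34 (0.74 to 1.69), and Mrpl3 at −0.52 (−0.66 to −0.21) against 0.30 (−0.07 to 1.16). Mrpl53, Mrps18c and Mrps21 were the other 3 below the core, and Mrpl20 lay above it. Translation initiation and elongation factors had a median of −0.05 over 57 genes, although Eef1a1, which brings aminoacyl-tRNA to the ribosome, was at −0.29 (−0.56 to 0.05) against 0.23 (−0.29 to 1.66). Proteasome subunits had a median of 0.07 over 42 genes, and splicing factors of −0.0028 over 47.

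On the high side the group medians were smaller. Potassium channel genes had a median of 0.14, with 46 of 65 above 0 against 52.8% of named genes. For Kcna6, Kcnj2 and Kcnn2 the 8 arrays lay above the core, and for 2 genes below it, of 65, against 1.72% and 2.44% of named genes. Of the latter, Kcnn3, a calcium-activated channel, was at −0.66 (−0.80 to −0.25) against 0.42 (0.01 to 0.73), a difference of −0.98 ± 0.09 (SE). Olfactory receptors, which brain expresses little, had a median of 0.11 with 94 of 136 above 0, and cytochrome P450 genes one of 0.10 with 31 of 46 above 0. GABA-A receptor subunits had the highest median, 0.21 over 12 genes, but 6 of the 12 were read at place 8 and the median of the other 6 was 0.12. The array means over the olfactory receptors were −0.09 to −0.01 in the 8 and −0.32 to −0.01 in the core, and thus overlapped. Strains in neither set also lay above the core, with median differences from it of 0.20 for potassium channels and 0.19 for olfactory receptors. For cytochrome P450 genes and GABA-A receptor subunits these medians were 0.21 and 0.20. The high medians were thus not particular to the 8.

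Markers of brain cell types differed little as groups. Median differences were 0.01 for 14 genes of myelin and oligodendrocytes, 0.09 for 14 of astrocytes, 0.03 for 12 of microglia, 0.09 for 16 of endothelium, −0.11 for 8 of choroid plexus and 0.06 for 10 of ependyma and cilia. Single markers differed more, and in both directions within a list. Differences ran from −0.56 to 0.73 in astrocytes and from −1.04 to 0.86 in endothelium. They ran from −0.59 to 0.49 in choroid plexus and from −1.04 to 0.44 in ependyma and cilia. In the endothelium list 1 of 16 genes, Tie1, lay above all core arrays, against 1.72% of named genes. On the other side 1 of the 16 lay below, against 2.44%. S100b, a calcium-binding protein of astrocytes, was at 0.82 (0.13 to 1.27) in the 8 and −0.06 (−0.42 to 0.66) in the core, and Cfap126, a gene of motile cilia, was at −0.43 (−0.97 to −0.20) against 0.41 (0.20 to 1.02). Ttr, the transthyretin of choroid plexus, was at −0.74 (−1.10 to −0.55) against −0.21 (−0.85 to 0.21). S100b and Ttr overlapped the core, and Cfap126 did not. In the choroid plexus list 1 of 8 genes lay above all core arrays, on the other side from Ttr, against 1.72% of named genes, and 0 lay below.

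Among genes of neurons, Gad1, which makes GABA, was at 0.95 (0.37 to 1.40) in the 8 and 0.03 (−0.45 to 0.61) in the core. Nrgn, the postsynaptic protein neurogranin, was at 0.18 (−0.06 to 0.43) against 1.12 (0.19 to 2.57). Gria3, an AMPA receptor subunit, was at −0.06 (−0.20 to 0.26) against 0.69 (0.31 to 0.91), and of these 3 only Gria3 was clear of the core. The list of neuronal cytoskeleton and GABA synthesis had a median of −0.08 over 15 genes, with 8 below 0 and a range of −0.57 to 0.82. Hippocampus and cortex genes had a median of 0.13 over 13, with 8 above 0 and a range of −0.95 to 0.52. Ionotropic glutamate receptors had a median of −0.17 over 14. Gria3 was the 1 of these 14 below all core arrays, against 2.44% of named genes. Synaptic vesicle genes as a group had a median of −0.03 over 26, and immediate early genes of 0.05 over 17.

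Y-linked genes are shown because every animal was male. Their median was −0.35 over 8, with 5 below 0, and −0.14 over the 6 with no probe at place 8, with 3 below 0. Over all 8 genes the array means were −0.44 to −0.23 in the 8 and −0.41 to 0.14 in the core. Uty, read at place 8, was at −2.49 (−2.72 to −2.21) against −1.60 (−2.14 to −0.80), and Usp9y at −1.26 (−1.59 to −0.71) against −0.21 (−1.70 to 0.50). Uty was clear of the core and Usp9y was not.

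**Figure D4:**
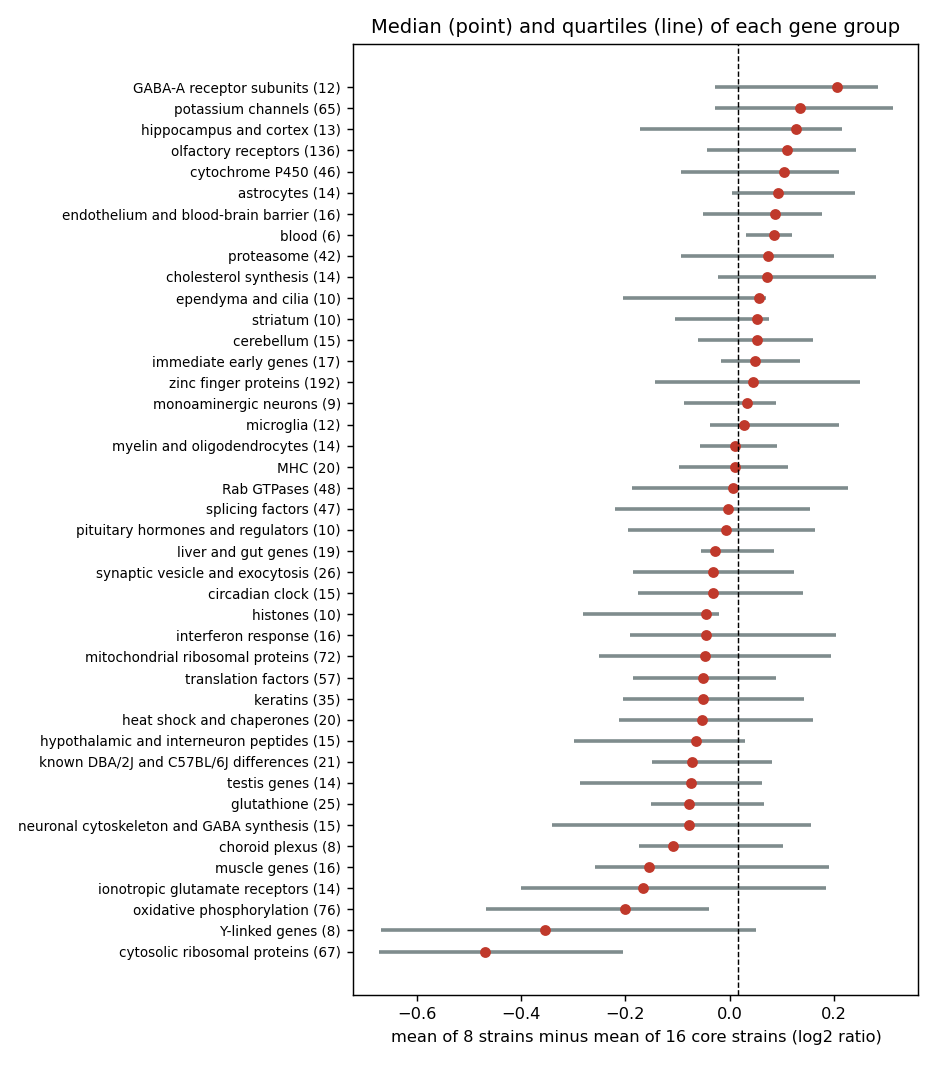
Differences (mean of 8 strains minus mean of 16 core strains, log2 ratio) in 42 gene groups, with the number of genes measured in brackets; points are medians, lines join the quartiles and the dashed line is the median of all named genes, 0.02. Cytosolic ribosomal proteins lie lowest, at −0.47, and most other medians lie close to the dashed line.

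Genes reported to be expressed unequally in the parents varied over strains by very unlike amounts. Among the 8 the SD ran from 0.06 for Nnt to 0.86 for Pam. The median SD over named genes away from place 8 was 0.139. Pam, a peptide-amidating enzyme, was at −0.72 in BXD15, 1.62 in BXD22, 0.67 in BXD27, 0.60 in BXD33, 1.98 in BXD34, 0.33 in BXD39, 0.03 in BXD40 and 1.03 in BXD42. The core ran from 0.11 to 2.23, and the difference was −0.02 ± 0.34 (SE), so the strains of each set spread widely and the sets did not part. Of the 21 such genes, 14 had a difference below 0, against 47.2% of named genes, with a median of −0.07. Map1a, a microtubule-associated protein, was the 1 of 21 without overlap, against 4.16% of named genes, at −0.03 (−0.11 to 0.20) against 0.59 (0.31 to 0.78), and the other 7 strains had a median of −0.34.

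Differences between the sets were spread over the chromosomes. The median difference of a chromosome ran from −0.0027 to 0.04, and the share of genes without overlap from 2.44% on chromosome 13 to 5.28% on chromosome 12. The 48 blocks of 480 spots of the table had mean differences of −0.05 to 0.05. The mean difference at place 8 was 0.02, but another position had a mean difference further from 0. A run of 8 spots near the end of each block, 384 spots in all and none with a gene symbol, differed by −0.22. Its mean was −0.03 in the 8 and 0.19 in the core. Of the 384 spots 15 lay below the core and 2 above, a share near the 4.04% of all features without overlap. The run just before it, also of 384 spots without a symbol, had a mean difference of 0.08, with 0 below and 0 above.

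Where 2 probes carried the same gene symbol, their differences were almost unrelated. Over 1047 genes with at least 2 probes the correlation of the difference between probes was 0.01 (Spearman 0.02), a description across genes, and 532 (50.8%) had the same sign. Without place 8 it was 0.04 over 864 genes. The mean log ratio of the core itself correlated between probes by only 0.04. Of 92 genes with at least 1 probe without overlap, 4 had both without overlap in the same direction: Scaf11, at −0.72 and −0.51, and Slco1b2, Smcp and Trav4d-3, all higher. Eef1a1, Gria3 and Map1a are means of 2 probes, as are the 8 ribosomal genes with a second probe. Apart from these, Gapdh and the 4 genes just listed, every gene named rests on 1 probe, and whether another probe would give it was not tested.

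**Figure D5:**
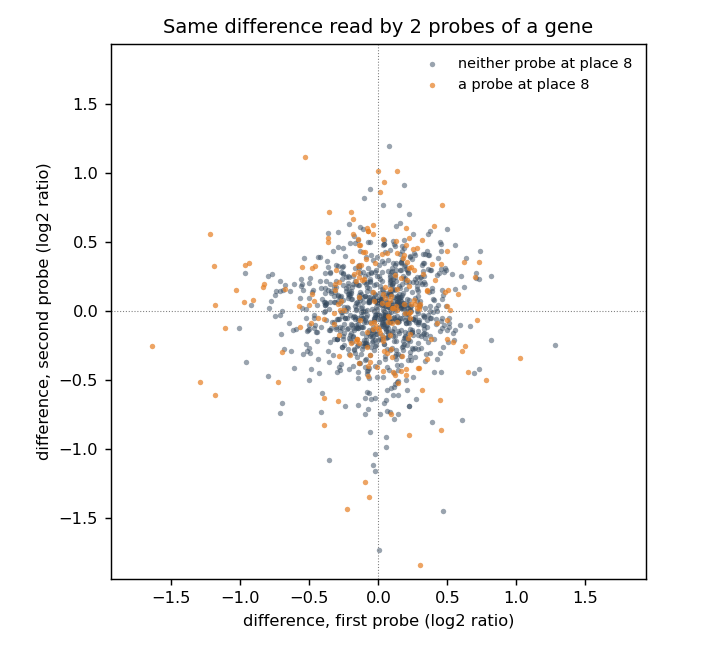
Difference between the 8 strains and the core (log2 ratio) read by 2 probes of each of 1047 genes, first probe on the horizontal and second on the vertical axis; orange points have a probe at place 8. The points form a round cloud with a correlation of 0.01, and 50.8% share a sign.

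The labels allow 1 test within the group of 8, the 5 strains numbered from 33 against BXD15, BXD22 and BXD27, since strain number did not enter the choice of genes. With limma and Benjamini-Hochberg adjustment, 0 of 21262 features (0%) passed an adjusted p of 0.05, and the smallest adjusted p was 0.0995. An unadjusted p under 0.05 was found for 1188 features (5.59%). Each strain is 1 array of a pool, so these p-values measure the spread between strains and arrays together. In simulated data of the same size, with independent normal noise for each feature, 93% of 200 features shifted by 1.5 were recovered. There were 7 false calls. A shift of 1.5 is large beside the median SD of 0.139 among the 8 for named genes away from place 8. Smaller shifts could be missed, and their recovery was not tested. Without BXD15, 7 features passed, and without BXD27, 1 did.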

How the data were processed

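Log2 ratios of whole-brain RNA were taken from 1 deposited table that covers 23040 spots on 31 arrays and lacks no value. All columns hold the same sorted values (median 0.01, SD 0.60, range −4.07 to 4.95), so the authors had quantile-normalised them. R 2.0.0 and limma are named without a role per the submitters' processing notes. For background correction, log base, centring and direction, the sources used here give no step or setting. Probes with 1 gene symbol (16874) were averaged per gene, giving 15096 genes; 6032 probes without a symbol and 134 with several were kept as single features, 21262 features in all. Depth has no meaning for arrays, and the number of arrays limits the precision. Symbols were matched to RefSeq GRCm38.p6 (14854 found).

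Members and all 42 gene lists were chosen with earlier results of these data known. The text draws its genes from the 12 highest and 12 lowest genes without overlap and with no probe at place 8, the 5 highest and 5 lowest at place 8, and the 2 members of each list with the largest differences; genes beyond these were chosen after their values were seen. Computation used Python 3.11.15, pandas 2.3.3, R 4.3.3 and limma 3.58.1. The limma step was tested on simulated data. Alternatives were leaving out each of the 8 arrays, all 23 other arrays as comparison, place 8 left out, median centring, group medians, single spots, natural logs and limma settings; leaving out BXD5 or BXD32 was added after the data were seen.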

Additional observations from a re-analysis of the deposited data

Results flagged for a closer look

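Among the 113 named genes, 17 had 1 of the 8 arrays far from the other 7 by Dixon's ratio of gap to range; chance alone gives about 1 in 20 groups, and genes chosen for large differences are not a random sample. BXD15 was the array in 6 of them. It was the highest for Potegl at −0.00022, Rplp1 at 0.48, Ndufa2 at −1.10 and Mal, a myelin protein, at 1.23, and the lowest for Apobec4 at −1.58 and for Tnp2, a sperm chromatin protein, at −1.18. BXD27 was the array in 4: it was highest for Megf6 at 2.11, for Gabra6, a receptor subunit of cerebellar granule cells, at −0.00496 and for Acta1, skeletal muscle actin, at −0.81, and lowest for the keratin Krt13 at −2.18.

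BXD40 was the highest for F3 at −1.88, for Rab9, a GTPase of endosomes, at −1.33 and for Foxj1, a regulator of motile cilia, at 0.52. BXD34 was the lowest for Trim15 at −0.46 and for Kcna2, a potassium channel, at −0.97. Psme4, a proteasome activator, was lowest in BXD33 at 0.23, and Cfap126 lowest in BXD39 at −0.97.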

How the results depend on the processing

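Without 1 of the 8 arrays, the number of features without overlap (858) ran from 880 to 1054, that with a difference of at least 1 (240) from 232 to 266, and the features called within the group of 8 (0) from 0 to 7. The median of cytosolic ribosomal proteins ran from −0.49 to −0.46 and that of oxidative phosphorylation from −0.22 to −0.18. With all 23 other arrays as comparison, 171 features did not overlap and 109 differed by at least 1; of the 628 named genes without overlap, 125 were also clear of the other 7 strains. Without BXD5 in the core, 1444 features did not overlap, since fewer arrays have to be cleared and BXD5 lay nearest. With place 8 left out 114 features differed by at least 1, and with values read as natural logs 862 did, by construction. The fit over 24 arrays in 3 groups called 2 features within the group of 8.

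Of 42 gene list medians, 16 changed sign under at least 1 alternative; with 23 arrays as comparison these included mitochondrial ribosomal proteins at 0.024, GABA-A receptor subunits at −0.0052 and ependyma and cilia at −0.10, and the cause was not tested. The medians of cytosolic ribosomal proteins and oxidative phosphorylation kept their sign under every alternative run. No paired analysis was possible because the sets share no strain number. The precision is limited by 1 array for each strain, without dye swap.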
